A study of Mus musculus with 10 samples.

Results

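The collagen chains of the mouse ventricle are described here in 10 hearts, 5 from mice injected with tamoxifen and 5 from mice injected with oil. A probe set was counted as a collagen when its annotation gave 1 gene symbol built as Col, a number, the letter a and a number. That rule found 46 probe sets for 44 genes, out of 35556 probe sets and 19938 named genes. Of these 44 genes, 41 were bright enough to test. Col10a1, Col28a1 and Col6a4 had mean log2 signals of 6.09, 6.43 and 6.54, under the cutoff of 6.55 that left out the dimmest 30% of probe sets, and were not tested. Each of the 41 is read from its brightest probe set, and no collagen shared a probe set with another gene.

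Collagens are secreted proteins in which 3 chains wind into a triple helix. Fibrillar collagens form the rope-like fibres that carry tension between heart muscle cells, with type I and type III making up most of the fibre mass in the heart. Network collagens build sheets, such as the type IV basement membrane around each muscle cell and capillary, and the remaining classes decorate fibres, form beaded filaments or span the cell membrane. In the heart most fibrillar collagen messenger RNA is made by fibroblasts.

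The study used mice in which the coactivators PGC-1 alpha (gene Ppargc1a) and PGC-1 beta (gene Ppargc1b), which drive genes of mitochondrial metabolism, were to be removed. All 10 mice are labelled as PGC-1 alpha knockouts, written PGC-1a-/-. The tamoxifen group carried the titles PGC-1a-/-bf/f/MerCre and received 50 mg/kg of tamoxifen per day on 2 days at 2 months of age, to activate a Cre recombinase, and is labelled as lacking both genes. The vehicle group received sunflower seed oil on the same days and is labelled as having normal PGC-1 beta. Its sample titles read PGC-1a-/-, while its source names give PGC-1a-/-bf/f/MerCre, so that the labels leave its genotype in part unsettled. Hearts were collected 1 month after injection, at 3 months of age. The promoter that drives the Cre was not given in the sources used here. Tamoxifen itself was given to only 1 group, so the drug, the activated Cre and the gene deletion cannot be told apart. If the titles hold, a difference in the genotype carried cannot be told apart from these either.

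The signals of the 2 targeted genes went against their labels. Ppargc1b had a mean log2 signal of 9.76 ± 0.10 (SD, n = 5) in the vehicle group and 10.03 ± 0.10 (SD, n = 5) in the tamoxifen group. That is a higher signal in the group labelled as lacking it, by 0.27 ± 0.061 on the log2 scale (SE; limma, adjusted p = 0.00518), with no overlap between groups. Ppargc1a, labelled as absent in all 10 mice, read 10.81 and 11.20 in the vehicle and tamoxifen groups (adjusted p = 0.00797). Whether these probe sets lie within the deleted parts was not given in the sources used here, so this reading does not settle the labels in either way. The groups are named throughout by the injection they are labelled with, every direction below rests on those labels, and an exchange of the labels would turn each higher call into a lower one and each lower call into a higher one. Array medians ran from 7.18 to 7.31, with tamoxifen array 2 the highest and the next at 7.24. Limma's array weights, which fall where an array departs from its group, were 0.248 for tamoxifen array 2 and 0.456 for vehicle array 4 and lay between 1.04 and 1.79 for the other 8, and these 2 arrays recur below.

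Promoter sequence was available for 35 of the 44 collagens in a RefSeq table of build GRCm38.p6, and for 5 of the 8 that were higher after tamoxifen. The 250 bases before the start of 4 genes are shown 5′ to 3′ on the gene's own strand, because they set the clearest change beside its partner chain that did not pass the test, and 2 fibrillar chains that each passed the test. Col8a1 lies at chr16:57754738-57754987 on the minus strand, Col8a2 at chr4:126286544-126286793 on the plus strand, Col1a2 at chr6:4505368-4505617 on the plus strand and Col3a1 at chr1:45311288-45311537 on the plus strand. Capitals mark matches, on either strand, to the TATA core TATAA, the CCAAT box CCAAT, the GC box GGGCGG, the TEAD element GGAATG and the AP-1 element TGANTCA.
Col8a1: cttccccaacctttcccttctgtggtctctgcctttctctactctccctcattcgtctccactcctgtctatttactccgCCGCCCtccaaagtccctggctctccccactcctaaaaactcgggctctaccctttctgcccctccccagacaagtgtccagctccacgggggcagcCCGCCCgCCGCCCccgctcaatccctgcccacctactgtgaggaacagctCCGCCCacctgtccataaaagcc
Col8a2: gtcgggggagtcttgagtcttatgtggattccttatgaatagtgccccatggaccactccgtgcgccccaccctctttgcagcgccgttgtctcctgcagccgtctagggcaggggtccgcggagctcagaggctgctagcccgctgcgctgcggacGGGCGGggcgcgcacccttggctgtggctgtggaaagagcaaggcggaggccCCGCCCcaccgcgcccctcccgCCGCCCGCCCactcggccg
Col1a2: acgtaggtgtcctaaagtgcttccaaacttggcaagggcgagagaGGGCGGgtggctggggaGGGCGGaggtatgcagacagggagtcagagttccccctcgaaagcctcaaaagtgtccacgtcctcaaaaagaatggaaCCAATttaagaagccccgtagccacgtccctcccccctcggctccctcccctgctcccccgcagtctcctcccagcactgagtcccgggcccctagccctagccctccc
Col3a1: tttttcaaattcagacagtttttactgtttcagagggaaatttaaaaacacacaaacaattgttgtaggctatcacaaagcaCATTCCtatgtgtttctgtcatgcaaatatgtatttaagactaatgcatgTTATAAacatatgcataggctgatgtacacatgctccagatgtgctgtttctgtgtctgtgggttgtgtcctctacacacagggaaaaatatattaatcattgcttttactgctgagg
The Col8a1 and Col8a2 stretches each held 4 GC boxes, which overlap in 1 place in Col8a2, and no match to the other motifs. Col1a2 held 2 GC boxes and 1 CCAAT box. Col3a1 held no GC box, a TATA core that reads on both strands and 1 TEAD element. Over the full windows of 300 bases, which run 50 bases past the start, GC boxes were found in 22 of the 35 collagens and in 35.9% of 27025 promoters. CCAAT boxes were found in 12 of the 35 against 37.9% of promoters, TATA cores in 7 against 25.5%, TEAD elements in 4 against 14.6% and AP-1 elements in 1 against 7.93%. Of the 5 higher collagens, 2 had a GC box, and 1 each had a CCAAT box, a TATA core and a TEAD element. A match is a string of letters and not a measured binding site.

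Several collagens are neighbours in the RefSeq gene order. Col3a1 and Col5a2 lie side by side on chromosome 1, Col6a1 and Col6a2 on chromosome 10, and Col6a4, Col6a5 and Col6a6 on chromosome 9. Col4a1 and Col4a2 on chromosome 8, like Col4a5 and Col4a6 on chromosome X, are neighbours whose chains join the basement membrane. The Col4a1 and Col4a2 promoter windows share 78 bases, chr8:11312777-11312854. They are shown on the plus strand with the GC box in capitals, because they hold the starts of both genes of a pair of chains of 1 molecule. The GC box lies past the start of each gene.
Shared by Col4a1 and Col4a2: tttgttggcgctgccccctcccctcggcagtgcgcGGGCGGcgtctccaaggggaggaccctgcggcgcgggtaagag

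In the whole family, 8 of the 41 tested collagens were higher in the tamoxifen group at an adjusted p under 0.05, and 1 was lower. The higher genes were Col1a1, Col1a2, Col3a1, Col5a2, Col6a3, Col8a1, Col14a1 and Col15a1, and the lower was Col4a6. Of all 13870 genes tested, 13.7% were higher and 8.31% lower, so 19.5% of collagens higher stands above the first share and 2.44% lower stands below the second. In either direction the shares were nearly equal, at 22.0% of collagens and 22.1% of all genes. The median log2 difference was -0.05 over the collagens and 0.01 over all genes, and 18 collagens had a positive and 23 a negative difference. The groups did not overlap, with every tamoxifen array above every vehicle array, in 5 collagens, against 10.5% of all genes. Every tamoxifen array was below every vehicle array in 1 collagen, Col25a1, against 6.15% of all genes. The count of 8 depended on which array was left out. Without vehicle array 4 there were 4 higher collagens (9.76%, against 10.8% of all genes), and without tamoxifen array 1 there were 4 (9.76% against 11.2%). Without tamoxifen array 2 there were 5 (12.2% against 11.7%), and without tamoxifen array 3 there were 6 (14.6% against 14.1%). These shares were near those of all genes. Without any 1 of the other arrays there were 7 to 10 (17.1% to 24.4%, against 11.3% to 12.7% of all genes). Without both vehicle array 4 and tamoxifen array 2 there were 4, against 10.4% of all genes, namely Col3a1, Col5a2, Col6a3 and Col8a1. In bulk tissue, a change in the number of cells of a type and a change in RNA per cell cannot be told apart.

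**Figure D1:**
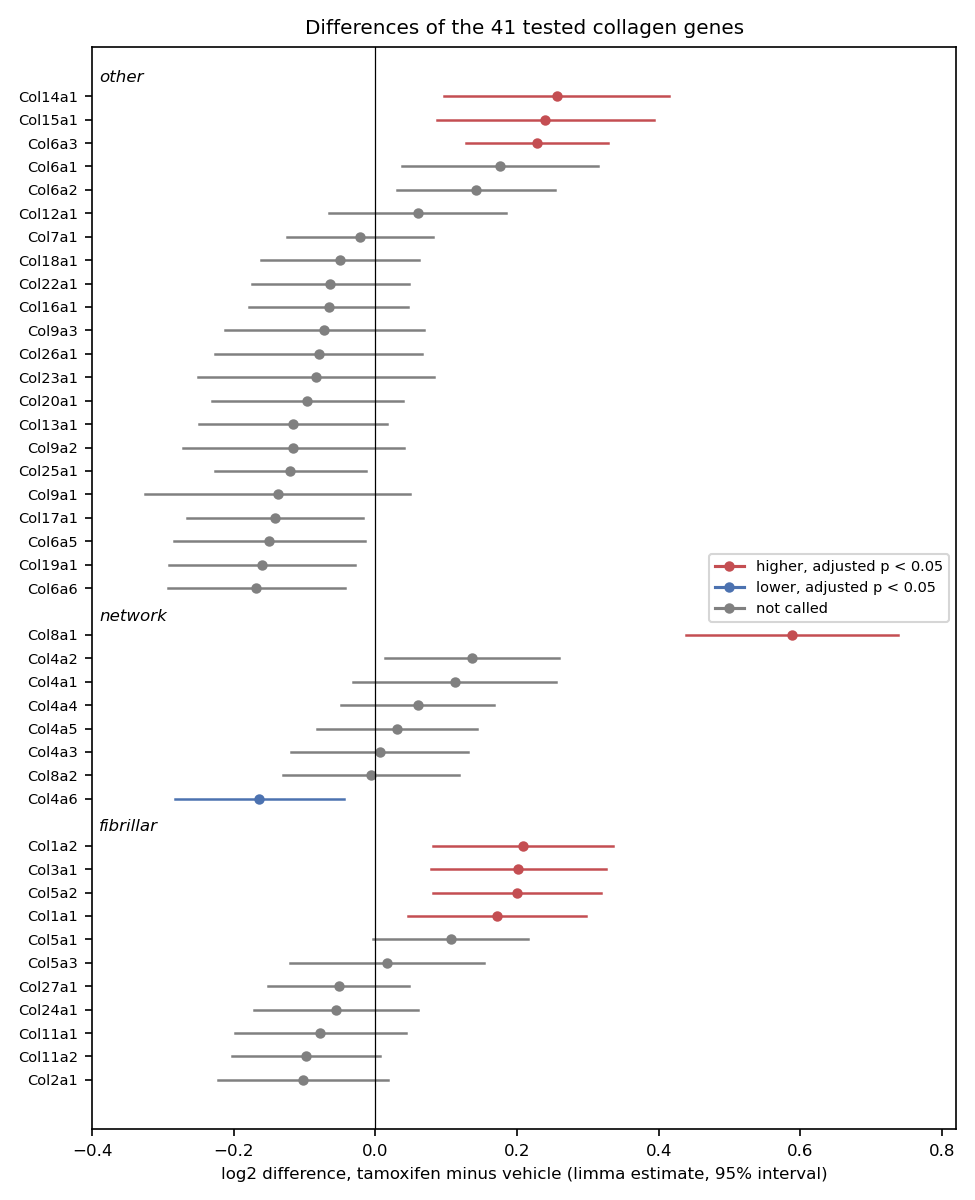
Log2 difference in signal, tamoxifen minus vehicle, for the 41 tested collagen genes (limma estimate with 95% interval, 5 arrays per group), sorted within the fibrillar, network and other classes. Red marks the 8 genes higher and blue the 1 gene lower at an adjusted p under 0.05; Col8a1, at 0.59, stands to the right of all other collagens.

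With all 10 arrays, the direction of the differences followed the brightness of the signal. Tested genes were split by their mean log2 signal into 4 bands of near equal size, with bounds at 7.46, 8.44 and 9.55, as a split of probe sets by brightness and not a ranking of RNA amounts. All 10 collagens of the band from 8.44 to 9.55 had positive differences, with a median of 0.19 against 0.04 over the 3466 genes of that band, and 6 of the 10 passed the test, against 552 of the 3466 that were higher. All 10 stayed positive with any 1 array left out, but the count of 6 was 2 without vehicle array 4 (Col1a2 and Col8a1), 2 without tamoxifen array 1 (Col3a1 and Col8a1) and 3 without tamoxifen array 2 (Col1a2, Col3a1 and Col8a1). These 10 are Col1a1, Col1a2, Col3a1, Col4a1, Col4a2, Col6a1, Col6a2, Col8a1, Col14a1 and Col15a1. Of the 16 collagens in the band below it 1 was higher (Col6a3, at 8.44 the brightest of them) and none lower. That is 6.25% higher, against 11.3% of all genes there, of which 6.87% were lower. Their median was -0.07 against 0.01 for all genes there. Of the 15 in the lowest band, Col5a2 was higher and Col4a6 lower, with a median of -0.08 against -0.03. Each is a share of 6.67%, near the 4.64% higher and 3.44% lower of all genes there. No collagen lay in the highest band.

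Vehicle array 4, 1 of the 2 arrays with the lowest weights, was low in bright collagens and high in dim ones, while tamoxifen array 2 was often the highest of its group in both sets. Among the 10 collagens above the middle bound of 8.44, vehicle array 4 was the lowest of its group in 9, and tamoxifen array 2 the highest of its group in 8. Among the 31 below it, vehicle array 4 was the highest of its group in 20 and tamoxifen array 2 in 12. Mean log2 signal over the 10 bright collagens was 8.85 on vehicle array 4 and 8.98 to 9.04 on the other vehicle arrays. It was 9.34 on tamoxifen array 2 and 9.10 to 9.24 on the other tamoxifen arrays, so that the groups stood apart in this mean with or without those 2 arrays. Over the 31 dim collagens vehicle array 4 read 7.57, above the 7.37 to 7.44 of all other arrays.

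**Figure D2:**
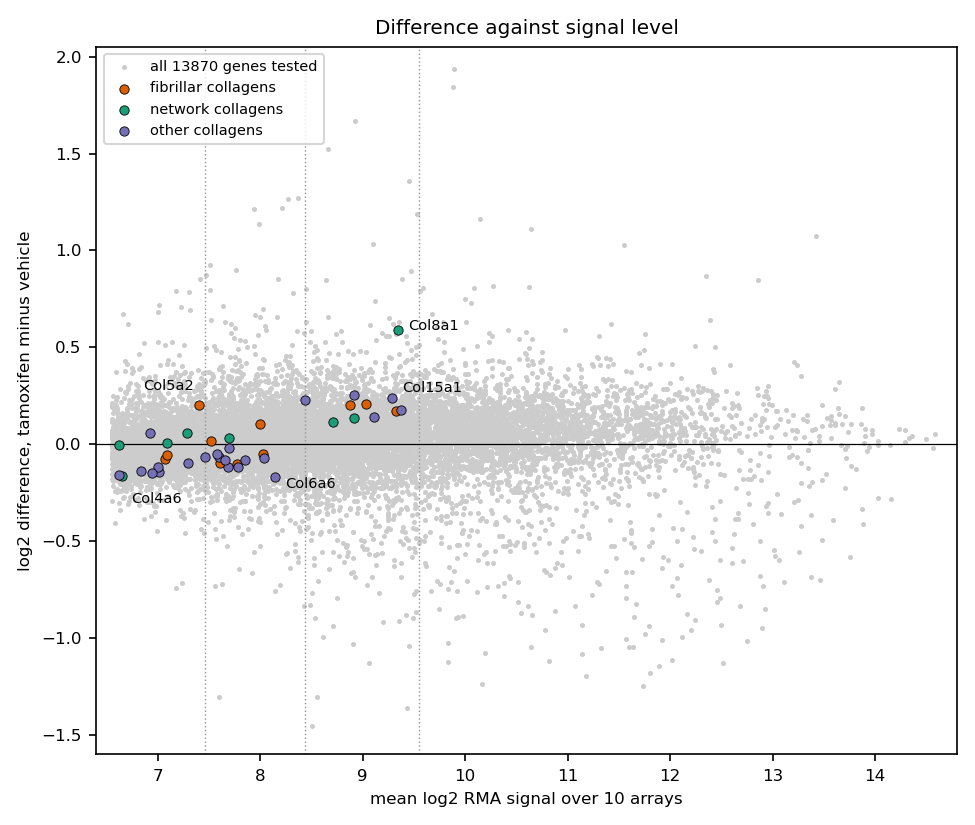
Log2 difference, tamoxifen minus vehicle, against mean log2 RMA signal over 10 arrays for all 13870 tested genes (grey) and the collagens (coloured by class); dotted lines are the band bounds 7.46, 8.44 and 9.55. The 10 collagens between the lines at 8.44 and 9.55 are all above 0, and most dimmer ones are below it.

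Among the fibrillar collagens, 4 of 11 were higher (36.4%, against 13.7% of all genes), none was lower, and the median difference was 0.02. The 4 are chains of types I, III and V, the fibre-forming types of the adult heart. Col1a1 encodes the alpha 1 chain of type I collagen and Col1a2 its alpha 2 chain. Col1a1 read 9.27, 9.35, 9.22, 9.16 and 9.21 on the vehicle arrays and 9.45, 9.58, 9.42, 9.30 and 9.32 on the tamoxifen arrays (log2 signal, arrays 1 to 5, as in all such lists below). The tamoxifen arrays were mostly above, but arrays 4 and 5 lay below the highest vehicle array. The difference was 0.17 ± 0.059 (SE; limma, adjusted p = 0.0482), a fold of 1.13. This was the weakest of the 8 calls, lost when any 1 of vehicle arrays 1, 3, 4 and 5 or tamoxifen arrays 1, 2 and 3 was left out (adjusted p up to 0.104). Col1a2 read 8.98, 8.95, 8.93, 8.84 and 8.94 after vehicle and 9.22, 9.27, 9.14, 9.11 and 8.94 after tamoxifen. Of the tamoxifen arrays, only array 5 lay within the vehicle range. The difference was 0.21 ± 0.060 (SE; limma, adjusted p = 0.0202), and without tamoxifen array 1 its adjusted p was 0.0575.

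Col3a1, the single chain of type III collagen, read 8.78, 8.84, 8.74, 8.64 and 8.86 after vehicle and 8.98, 9.13, 8.93, 8.89 and 8.94 after tamoxifen. The groups did not overlap, and tamoxifen array 2 was the highest. The difference was 0.20 ± 0.058 (SE; limma, adjusted p = 0.0196), with an adjusted p of 0.0502 without vehicle array 4. Type V collagen starts new fibrils and sets their width. Its alpha 2 chain, Col5a2, read 7.23, 7.33, 7.29, 7.30 and 7.36 after vehicle and 7.56, 7.66, 7.48, 7.40 and 7.41 after tamoxifen. Here too the groups did not overlap, and the call held without any 1 array (difference 0.20 ± 0.056, SE; limma, adjusted p = 0.0175, and up to 0.0479 with an array left out). Its partner Col5a1 went from 7.95 ± 0.087 to 8.05 ± 0.047 (SD, n = 5 each), which did not pass the test, with a 95% interval of the difference from -0.004 to 0.22 (limma, adjusted p = 0.163). The dim fibrillar chains did not pass either. Col5a3 differed by 0.02, and Col2a1, Col11a1, Col11a2, Col24a1 and Col27a1 by -0.10 to -0.05. Col2a1 and the type XI chains are best known from cartilage.

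**Figure D3:**
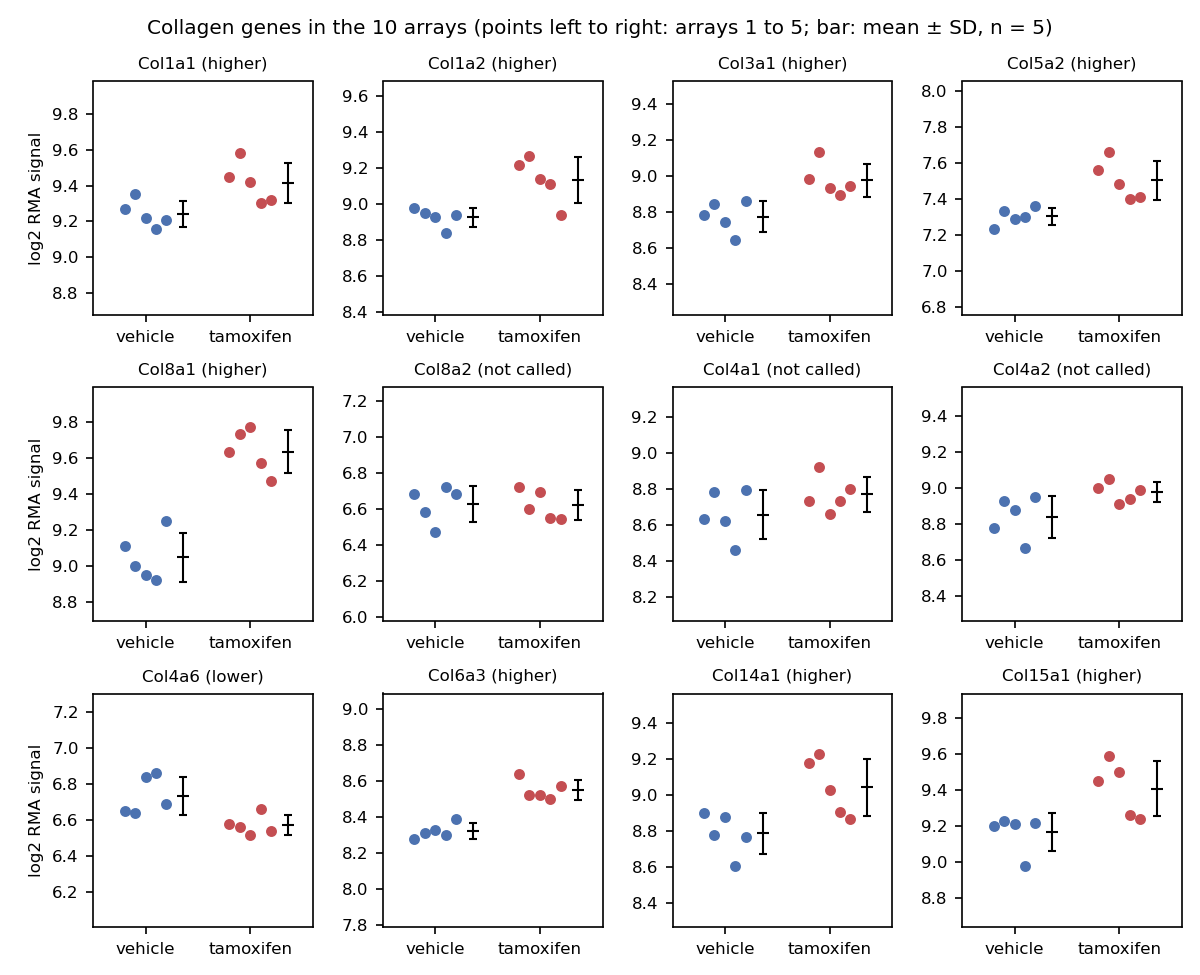
Log2 RMA signal of 12 collagen genes on each of the 10 arrays (points, arrays 1 to 5 from left to right; black bars are mean ± SD, n = 5), each panel spanning 1.3 log2 units around its own mean. Col8a1 shows the widest gap between groups, from a vehicle mean of 9.05 to a tamoxifen mean of 9.63, and Col8a2 shows none.

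Of the 9 network collagens 8 were tested, with 1 higher and 1 lower and a median difference of 0.05. Each was a share of 12.5%, against 13.7% of all genes higher and 8.31% lower. Col8a1 encodes a chain of the short-chain type VIII collagen, a sheet-forming collagen of vessel walls and of the injured heart. It read 9.11, 9.00, 8.95, 8.92 and 9.25 after vehicle and 9.63, 9.73, 9.77, 9.57 and 9.47 after tamoxifen. Every tamoxifen array was well above every vehicle array. The difference of 0.59 ± 0.071 (SE; limma, adjusted p = 1.5e-05) is a fold of 1.50 and the largest in the family, with a 95% interval, 0.44 to 0.74, above that of every other collagen. It passed with each array left out (adjusted p up to 0.000128). The other type VIII chain, Col8a2, had means of 6.63 ± 0.10 and 6.62 ± 0.082 (SD, n = 5 each) and lay just above the cutoff for dim probe sets. Its difference was -0.01, with a 95% interval from -0.13 to 0.12.

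Col4a1 and Col4a2, the chains of the common type IV basement membrane heterotrimer, did not pass the test. Col4a1 read 8.63, 8.78, 8.62, 8.46 and 8.79 after vehicle and 8.73, 8.92, 8.66, 8.73 and 8.80 after tamoxifen, and the groups overlapped. The 95% interval of its difference ran from -0.03 to 0.26 (limma, adjusted p = 0.262), and that of Col4a2 from 0.01 to 0.26 (limma, adjusted p = 0.109). Col4a6, whose chain pairs with that of Col4a5 in some basement membranes, was the only collagen called lower. It read 6.65, 6.64, 6.84, 6.86 and 6.69 after vehicle and 6.58, 6.56, 6.52, 6.66 and 6.54 after tamoxifen. The signals were close to the cutoff and the groups overlapped at tamoxifen array 4. The difference was -0.16 ± 0.056 (SE; limma, adjusted p = 0.0462), and the call was lost when any 1 of vehicle arrays 3, 4 and 5 or tamoxifen arrays 1, 2, 3 and 5 was left out (adjusted p up to 0.127). Col4a3, Col4a4 and Col4a5 differed by 0.01 to 0.06 and did not pass.

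Of the remaining 24 collagens 22 were tested, with 3 higher (13.6%, against 13.7% of all genes), none lower and a median of -0.08. Type VI collagen forms beaded filaments close to the cell surface from the alpha 1, alpha 2 and alpha 3 chains. Its alpha 3 chain, Col6a3, read 8.28, 8.31, 8.33, 8.30 and 8.39 after vehicle and 8.64, 8.52, 8.52, 8.50 and 8.57 after tamoxifen. The spread within each group was small and the groups did not overlap. The difference was 0.23 ± 0.047 (SE; limma, adjusted p = 0.00236), and it passed with each array left out (adjusted p up to 0.00965). Col6a1 and Col6a2 had differences of similar size that did not pass, 0.18 ± 0.065 (SE; limma, adjusted p = 0.0654) and 0.14 ± 0.053 (SE; limma, adjusted p = 0.0663). Without tamoxifen array 5 they passed, at 0.0496 and 0.0493. Both passed with each array centred on its median (limma, adjusted p = 0.0334 and 0.0237) and with the dimmest 50% of probe sets left out (0.0419 and 0.0409), and Col6a1 also with a trended and robust prior (0.03) and after quantile normalization (0.0476). Col6a5 and Col6a6, which can take the place of the alpha 3 chain, had differences of -0.15 and -0.17, and neither passed (limma, adjusted p = 0.107 and 0.0512). Col6a5 was called lower without vehicle array 2. Col6a6 was called lower without tamoxifen array 3, with the trended prior and with the dimmest 50% left out (limma, adjusted p = 0.0106, 0.0488 and 0.0313). Each had a second probe set. That of Col6a6 differed by -0.06 and was not called, and that of Col6a5 was under the cutoff and differed by 0.10, against the sign of the first.

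Of the 9 fibril-associated collagens, which sit on the surface of fibres, 1 was higher (11.1%, against 13.7% of all genes). Col14a1 read 8.90, 8.78, 8.88, 8.61 and 8.77 after vehicle and 9.18, 9.23, 9.03, 8.91 and 8.87 after tamoxifen. Only tamoxifen array 5 was below the highest vehicle array. The difference was 0.26 ± 0.075 (SE; limma, adjusted p = 0.0216), and the call was lost without vehicle array 4, tamoxifen array 1 or tamoxifen array 2 (adjusted p up to 0.0621). The related Col12a1 differed by 0.06 and the other 7 (Col9a1, Col9a2, Col9a3, Col16a1, Col19a1, Col20a1 and Col22a1) by -0.16 to -0.06, none past the test, though Col19a1 was called lower without vehicle array 2.

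The multiplexins Col15a1 and Col18a1 are basement membrane collagens that carry endostatin-like domains at their ends. Col15a1 read 9.20, 9.23, 9.21, 8.98 and 9.22 after vehicle and 9.45, 9.59, 9.50, 9.26 and 9.24 after tamoxifen. The groups were apart by only 0.01 at their nearest arrays. The difference was 0.24 ± 0.072 (SE; limma, adjusted p = 0.0248), and dropping any of vehicle array 4 and tamoxifen arrays 1, 2 and 3 ended the call (adjusted p up to 0.0627). Col18a1 read 7.60 ± 0.069 and 7.55 ± 0.076 (SD, n = 5 each), with a 95% interval of the difference from -0.16 to 0.06. The 4 transmembrane collagens, Col13a1, Col17a1, Col23a1 and Col25a1, had differences of -0.14 to -0.08, and none passed the test. Their median was -0.12. Col17a1 was called lower without tamoxifen array 2, with array weights and after quantile normalization (limma, adjusted p = 0.0373, 0.0369 and 0.0499), and Col25a1 with array weights (0.0488). Col7a1, the anchoring fibril collagen of skin, differed by -0.02 and Col26a1 by -0.08, neither past the test.

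Pairs of related collagen chains were next compared within each array, which asks whether a pair changed unequally. Not all pairs are chains of 1 molecule or fibre. Col15a1 and Col18a1 encode separate collagens of the multiplexin class, and Col4a1 and Col4a5 encode type IV chains of different trimers. For 9 pairs the log2 difference of the 2 chains was taken on every array, and its change from vehicle to tamoxifen was tested by an exact two-sided permutation of the arrays, where 5 against 5 cannot give a p under 0.00794. A pair passed in 2 cases. Col8a1 minus Col8a2 changed by 0.59 ± 0.074 (SE; exact permutation p = 0.00794, 0.0357 adjusted over the 9 pairs), and Col15a1 minus Col18a1 by 0.29 ± 0.095 (SE; exact permutation p = 0.00794, adjusted 0.0357). Both pairs separated the groups fully. With 1 array left out the change was 0.54 to 0.63 for the Col8a1 pair and 0.22 to 0.33 for the Col15a1 pair. Both calls were lost without any 1 of the vehicle arrays or of tamoxifen arrays 2 and 3 (exact permutation, adjusted p = 0.0715 and 0.0716). With 4 against 5 arrays p moves in steps of 0.00794, so 1 step can lose a call. The 2 genes of each passing pair were chosen with their own differences known. Col8a2 lay just above the cutoff for dim probe sets and differed by -0.01. The change of its pair therefore largely repeats the difference of 0.59 of Col8a1 alone and is not separate evidence.

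The other 7 pairs did not pass. Col1a1 minus Col1a2 changed by -0.04 ± 0.040 (SE; exact permutation p = 0.429), Col1a1 minus Col3a1 by -0.03 ± 0.037 (SE; exact permutation p = 0.452) and Col4a1 minus Col4a2 by -0.02 ± 0.033 (SE; exact permutation p = 0.492). Each of these 3 errors was smaller than that of either gene alone. Col5a1 minus Col5a2 changed by -0.09 ± 0.043 (SE; exact permutation p = 0.0794). Col6a1 minus Col6a3 changed by -0.05 ± 0.069 and Col6a1 minus Col6a2 by 0.03 ± 0.067 (SE; exact permutation p = 0.46 and 0.754), and the latter turned to -0.03 without vehicle array 4. Col4a1 minus Col4a5 changed by 0.08 ± 0.063 (SE; exact permutation p = 0.238).

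**Figure D4:**
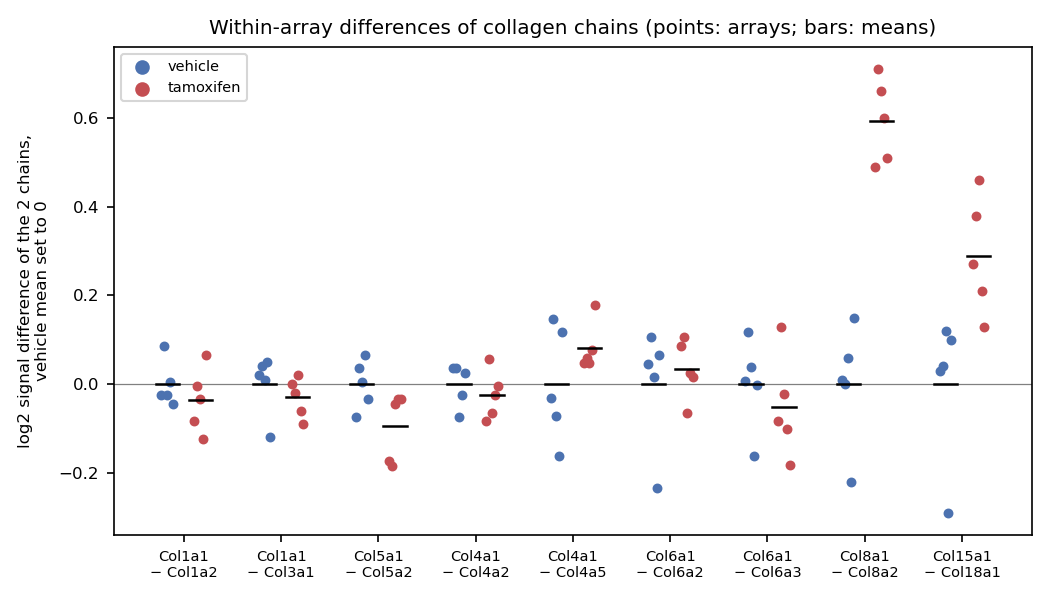
Log2 signal difference of 2 collagen chains on each array, with the mean of the 5 vehicle arrays set to 0, for 9 pairs (blue vehicle, red tamoxifen, black bars group means). Col8a1 minus Col8a2 rises by 0.59 and Col15a1 minus Col18a1 by 0.29 with no overlap between groups, and the other 7 pairs overlap.

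Genes that make, process, bind and sense collagen were described from 6 lists. Together 66 of their genes were tested, of which 22 were higher (33.3%) and 1 lower (1.52%), against 13.7% and 8.31% of all genes. The share higher rose with brightness. The 66 had a median log2 signal of 9.1, in the band where 15.9% of all genes were higher, and 23.1% were higher in the brightest band. The count of 22 was 16 without vehicle array 4 (10.8% of all genes higher). It was 13 without both vehicle array 4 and tamoxifen array 2 (10.4% of all genes higher). Of the 23 called, 16 passed whichever single array was left out. Among enzymes and carriers that modify, fold and export the chains, 7 of 19 were higher and none lower, with a median of 0.15. P4hb and P4ha1, the subunits of the prolyl hydroxylase that stabilises the triple helix, differed by 0.29 ± 0.050 (SE; limma, adjusted p = 0.000534) and 0.26 ± 0.063 (SE; limma, adjusted p = 0.00663). The lysyl hydroxylase Plod3 differed by 0.21 and Mia3, which loads procollagen for export, by 0.18 (limma, adjusted p = 0.00684 and 0.0145). Fkbp10 was not analysed here.

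Of genes for removal of propeptides and crosslinking, 3 of 10 were higher and none lower, with a median of 0.04. Lox and Loxl1, oxidases that crosslink fibres, differed by 0.35 ± 0.096 and 0.29 ± 0.061 (SE; limma, adjusted p = 0.0151 and 0.0028). Pcolce, which speeds removal of the carboxy-terminal propeptide, differed by 0.29 ± 0.062 (SE; limma, adjusted p = 0.00285). Adamts2 and Loxl2 were not analysed here. Of proteins that bind fibrils, 6 of 10 were higher and none lower, with a median of 0.17. The proteoglycans Bgn, Aspn and Lum differed by 0.26, 0.27 and 0.26, and fibronectin (Fn1) by 0.26 (limma, adjusted p = 0.00299, 0.0146, 0.0149 and 0.00992).

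Of genes for breakdown and uptake, 2 of 7 were higher and none lower, with a median of 0.13. They were Pepd, a peptidase for proline-containing fragments (0.29, limma, adjusted p = 0.00446), and the collagenolytic cathepsin Ctsk (0.24, limma, adjusted p = 0.0324, and up to 0.0785 without any 1 of vehicle arrays 2, 4 and 5 or tamoxifen arrays 2 and 3). The collagenases Mmp1a, Mmp8 and Mmp13 were under the cutoff. Of the 8 collagen receptors 1 was higher, the receptor kinase Ddr2 (0.16, limma, adjusted p = 0.0421), and it did not pass without any 1 of vehicle arrays 2 to 5 or tamoxifen arrays 1, 2 and 4 (adjusted p up to 0.0948). The integrin subunit Itgb1 differed by 0.13 and did not pass (limma, adjusted p = 0.0663). Of 12 genes of TGF-beta signalling, a pathway that drives collagen transcription in fibroblasts, 3 were higher and 1 lower, with a median of 0.12. Tgfb1, a ligand, differed by 0.21 (limma, adjusted p = 0.0128), and Skil, a feedback inhibitor, by 0.22 (limma, adjusted p = 0.00608). Tgfb3 differed by 0.17 (limma, adjusted p = 0.0403, and up to 0.0988 with 1 array left out, passing only without vehicle array 3 or tamoxifen array 3). Ltbp1, which stores latent TGF-beta in the matrix, was the gene that was lower, by -0.33 ± 0.049 (SE; limma, adjusted p = 0.000127), with no overlap between groups.

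Markers of the cell types in the ventricle are given beside these results, and their part in the collagen differences was not tested. Their counts stand against 13.7% of all genes higher, a share that ran from 4.64% in the dimmest band to 23.1% in the brightest. Of 11 fibroblast markers 6 were higher and none lower, with a median of 0.16, and their summed linear signal was 23700 to 24700 on the vehicle arrays and 25800 to 28700 on the tamoxifen arrays. Mfap5, Meox1 and Pi16 differed by 0.44, 0.37 and 0.24 (limma, adjusted p = 0.000166, 0.006 and 0.00207). The defining fibroblast genes Pdgfra and Tcf21 did not pass, with differences of 0.02 and 0.05 and 95% intervals from -0.14 to 0.18 and from -0.12 to 0.22. Of 9 markers of activated fibroblasts 5 were higher and none lower, with a median of 0.24 and sums of 10100 to 11000 against 10900 to 13800. Tnc and Postn, matrix proteins of healing tissue, differed by 0.68 and 0.59 and Cilp by 0.35 (limma, adjusted p = 0.000169, 0.000156 and 0.00395). The lists share genes with the collagen pathway, namely Lum, Dcn, Dpt, Ddr2, Fn1 and Fap, and Acta2 and Comp stand in more than 1 marker list, so the counts are not independent.

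Of 10 macrophage markers 7 were higher and none lower, with a median of 0.26, and their sum was 6140 to 7050 against 7230 to 8730. Cd68 differed by 0.40 and Adgre1 by 0.30 (limma, adjusted p = 0.000697 and 0.00373). Of 9 smooth muscle and pericyte markers 2 were higher, Cnn1 and Acta2 (0.34 and 0.24, limma, adjusted p = 0.0023 and 0.0233, the latter lost without tamoxifen array 3 or 5), while Myh11 differed by 0.004 and did not pass, and the median was 0.03 with sums of 17600 to 18700 against 18100 to 20400. Of 8 endothelial markers 1 was higher, Cldn5 (0.35, limma, adjusted p = 0.0117), while Pecam1 differed by 0.07 and did not pass. Cdh5 differed by -0.10 and did not pass (limma, adjusted p = 0.118). Its tamoxifen arrays all lay below its vehicle arrays, as in 6.15% of all genes. Of the 8 differences 5 were positive and 3 negative, with a median of 0.01 and sums of 13600 to 15000 against 14100 to 15400.

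Of 8 cardiomyocyte markers Actn2 was higher (0.18, limma, adjusted p = 0.00616) and Ryr2 lower (-0.16, limma, adjusted p = 0.0238, and up to 0.0637 when any of vehicle arrays 1, 3 and 5 or tamoxifen array 5 was dropped). The myosin Myh6 differed by 0.05 and did not pass, and the markers were bright on all 10 arrays, with sums of 134000 to 136000 against 136000 to 139000. Of 5 tested cartilage markers only Sox9, a transcription factor of cartilage and other cells, was higher (0.23, limma, adjusted p = 0.00988), and the defining cartilage genes Acan, Matn1 and Hapln1 were under the cutoff. None of 4 mesothelial, 2 Schwann cell or 3 adipocyte markers tested was called.

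**Figure D5:**
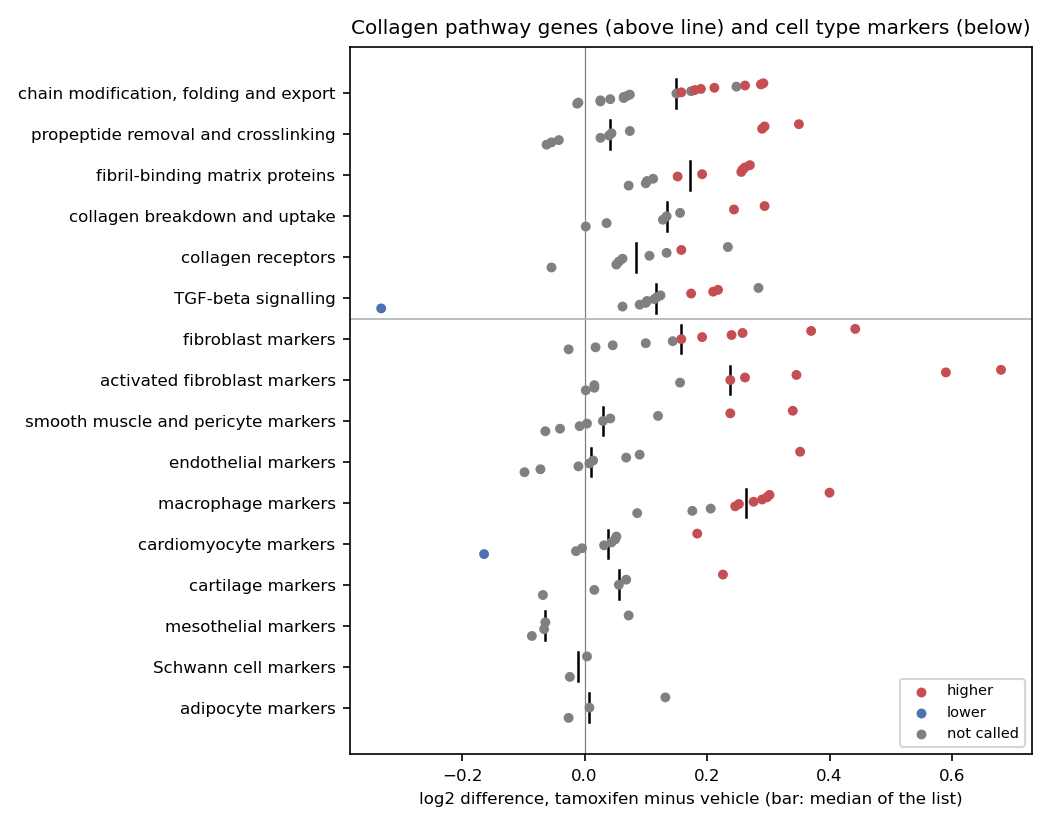
Log2 difference, tamoxifen minus vehicle, of each tested gene (points) in 6 collagen pathway lists above the line and 10 cell type marker lists below it; black bars are list medians, red and blue mark genes higher and lower at an adjusted p under 0.05. Medians of the pathway, fibroblast and macrophage lists lie between 0.04 and 0.26, and those of the endothelial, mesothelial, Schwann cell and adipocyte lists between -0.07 and 0.01. Those of the smooth muscle and pericyte, cardiomyocyte and cartilage lists are 0.03, 0.04 and 0.06.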

How the data were processed

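RNA of 10 ventricles was hybridised to Affymetrix mouse gene arrays, 1 array per mouse, per the labels' protocols. The values are log2 signals as deposited. Per the submitters' processing notes, the authors used Affymetrix Expression Console 1.1 for RMA, which corrects background, equalises arrays and combines probes. They carry no detection call, so faint signals have an unknown share of background, and the number of arrays limits the precision. The genome build behind the probe sets was not given in the sources used here.

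Of 35556 probe sets, 21789 carried 1 gene symbol in the platform annotation, 1621 more than 1 and 12146 no symbol. Names were compared with a RefSeq table of GRCm38.p6, which changed 0 of them and did not hold 91 identifiers. For 999 genes with several probe sets, the brightest was taken. Probe sets in the dimmest 30% were dropped (6068 genes), leaving 13870. Tamoxifen was compared with vehicle in limma 3.58.1 (R 4.3.3; lmFit and eBayes, two-sided, no covariate), with Benjamini-Hochberg adjustment over all 13870 genes and a threshold of 0.05. Limma p-values set each group difference against the spread between these mice, drawn towards a spread common to all tested genes. Fits were tested on simulated data. Alternatives were the normalization, the filter, the probe set rule, array weights, the variance prior, a block for the replicate number and leaving out arrays.

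The members, the lists and the chain pairs were chosen with earlier results of these data known. All collagens are accounted for, and of each list up to 4 genes with the smallest p are named, with defining markers and the 2 targeted genes.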

Additional observations from a re-analysis of the deposited data

Results flagged for a closer look

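In 5 of the 82 groups of 5 arrays examined over the 41 tested collagens, 1 array stood apart from the other 4 by more than Dixon's 95% limit of 0.71 for the gap divided by the range. Chance gives about 1 in 20 such groups. All 5 were on the 2 arrays with the lowest array weights. On vehicle array 4, Col15a1 read 8.98 against 9.20 to 9.23 on the other vehicle arrays, Col2a1 read 8.03 against 7.74 to 7.80 and Col7a1 read 7.84 against 7.66 to 7.68. On tamoxifen array 2, Col4a3 read 7.30 against 7.01 to 7.07 on the other tamoxifen arrays and Col4a5 read 7.89 against 7.64 to 7.71. Of these genes only Col15a1 passed the test between groups, and its difference was 0.19 without vehicle array 4 (limma, adjusted p = 0.0627). The cause was not tested.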

How the results depend on the processing

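Col8a1 and Col6a3 were called higher under all 19 alternatives and Col5a2 under all 18 in which it was tested. The count of higher collagens was 5 with no filter on dim probe sets, 4 without both vehicle array 4 and tamoxifen array 2, and 4 to 10 with 1 array left out. The count of lower collagens was 2 with the replicate block, 3 with array weights, 2 after quantile normalization, 0 with no filter and 0 to 3 with 1 array left out. The median collagen difference was 0.11 with the dimmest 50% left out, which tests 22 collagens. Over all genes, 1780 were lower with array weights. The pathway count was 13 without both arrays, where 10.4% of all genes were higher. Passing chain pairs numbered 0 under the replicate block, where no p under 0.0625 is possible, 0 after quantile normalization and 0 without both arrays. They numbered 0 to 2 with 1 array left out, where p moves in steps of 0.00794 and 1 step can lose a call. Col6a1 minus Col6a2 reversed to -0.042 without both arrays and ranged from -0.025 to 0.061 with 1 left out. Deviations of arrays with the same replicate number correlated at 0.039 to 0.203, above 0.1 in 3 of 5 pairs, against a median of -0.0324 (range -0.199 to 0.226) over the 20 pairs of different numbers. Of the vehicle arrays 4 of 5, and of the tamoxifen arrays 3 of 5, correlated best with their own number, a hint of pairing that comes from the data and not from the labels. With the replicate block 9 collagens and 2232 genes were higher and 1300 genes were lower; Col6a1 was then called higher (limma, adjusted p = 0.0289) and Col6a6 lower (0.0459). The causes of these shifts were not tested.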
